A study of Mus musculus with 8 samples.

Results

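Hox paralogue groups 10 and 11 are 6 genes of clusters a, c and d: Hoxa10, Hoxc10, Hoxd10, Hoxa11, Hoxc11 and Hoxd11. They were chosen by name from the 55421 gene identifiers of the deposited table, and all 6 were found. Poly-A RNA had been sequenced from mouse embryos at E9.25, with 9 to 11 somites, of 2 genotypes, wild type and homozygous mutant for Gcnf (Gcnf-/-). Gcnf, the germ cell nuclear factor, is the orphan nuclear receptor encoded by Nr6a1, and the series set out to find how gene expression differs between the genotypes. Each embryo had been divided into an anterior piece, ending with pharyngeal arch 1, and a posterior piece, starting with pharyngeal arch 2. The 4 groups, mutant anterior, mutant posterior, wild-type anterior and wild-type posterior, held 2 libraries each, numbered 159 and 163 in the mutant and 153 and 156 in the wild type. The labels give no strain and no other allele or agent, the sources used here do not give the part of the gene that the allele lacks, and each piece mixes all cell types of its region.

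Hox genes encode homeodomain transcription factors that give body segments their identity along the head-to-tail axis, and they are switched on in the order in which they lie in their clusters. Group 10 genes suppress rib formation in the lumbar vertebrae, and group 11 genes specify the sacral vertebrae and act in the forearm and lower leg and in the early kidney. The clusters arose by duplication, so genes of 1 group in different clusters (paralogues) encode similar proteins with overlapping functions, and cluster b has no gene of either group.

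The libraries corresponded to between 27061600 and 52952685 reads in genes, and levels are given as TPM, in which reads are divided by gene length and every library adds up to the same total. Levels of 7 forebrain and head markers summed to between 265 and 312 TPM in the anterior pieces and between 9.38 and 12.5 TPM in the posterior ones. Levels of 8 trunk and tail markers, 3 of them Hox genes, summed in the posterior pieces to between 756 and 1019 TPM in the wild type and between 525 and 537 TPM in the mutant. In the anterior pieces they summed to between 30.6 and 32.8 TPM in the wild type and between 56.2 and 69.4 TPM in the mutant. These sums thus moved with genotype in both regions, and their part in the members' values was not tested. Nr6a1 lay between 116 and 240 TPM in the 8 libraries, and since a value for the whole gene does not separate mutant from normal transcript, it does not check the genotype labels. Xist was at 25.3 and 30.9 TPM in the mutant libraries numbered 159 and at most 0.0749 TPM in the other 6, so the genotypes were not balanced for sex. In the mutant, libraries 163 had Ddx3y of the Y chromosome instead (31.0 and 39.4 TPM), so 159 and 163 were not technical copies of each other. Ddx3y was at 26.2 to 31.9 TPM throughout the wild type, and no label ties a library to an embryo, so wild-type replicates may be technical. The p-values cover only the variation from library to library. Differences are of log2(TPM + 1), mutant minus wild type or posterior minus anterior, with the standard error. Adding 1 TPM makes them understate the change of low genes. They were tested with limma, fitted to 16699 genes, with Benjamini-Hochberg adjustment over all of them and a threshold of 0.05.

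In the posterior pieces 5 of the 6 genes rose in the mutant and 0 fell. Genes with at least 1 TPM in at least 2 libraries were tested, and Hoxd11, 1 of the 5, met this only with the mutant posterior libraries. Of all 16699 genes, 8.56% passed as higher in this comparison, 2.93% as lower and 11.5% in either direction. All 3 genes of group 11 rose more than any gene of group 10, and Hoxc10 was the member that did not pass. In 5 of the 6 both mutant libraries lay above both wild-type ones, as they did in 33.4% of all genes tested. The median difference of the 6 was 1.59, against 0.05 over all genes tested. In a bulk sample, more cells with a transcript and more RNA per cell cannot be told apart.

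**Figure D1:**
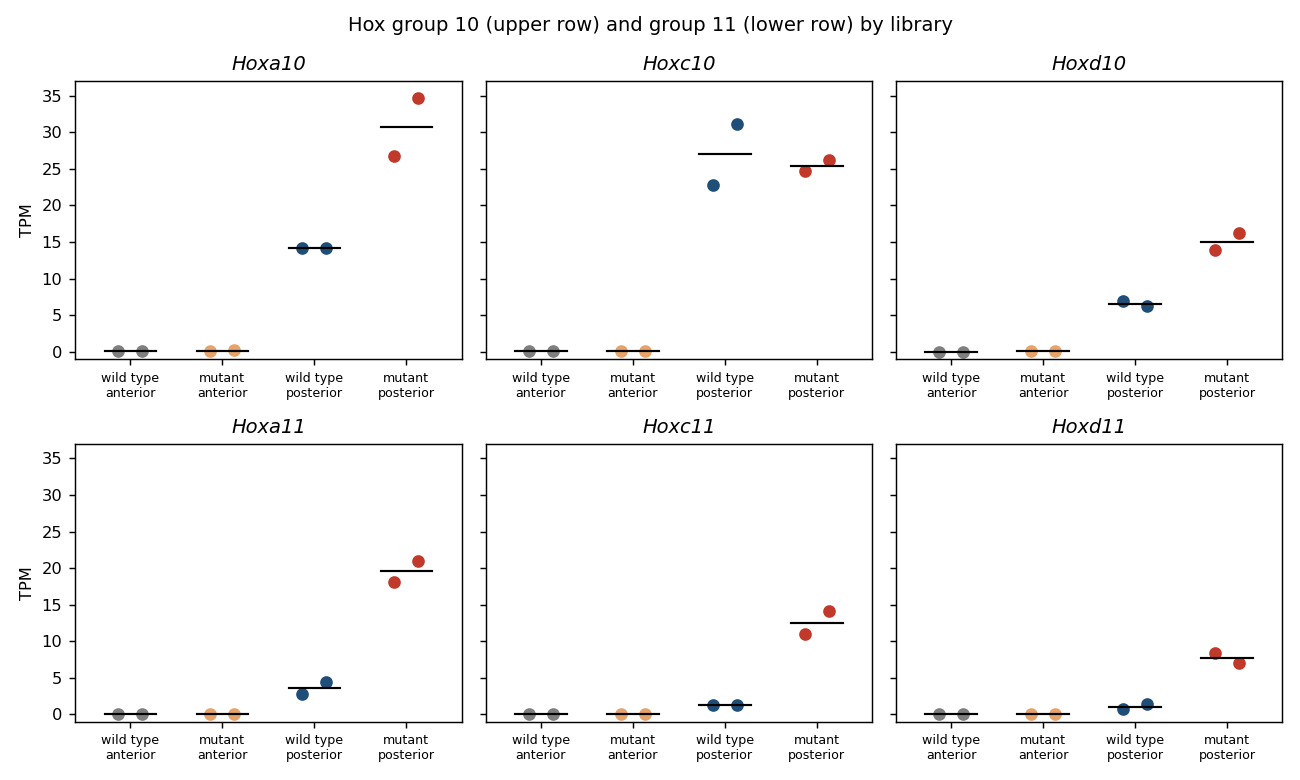
Level in TPM of each member in the 8 libraries, with points for single libraries and a horizontal line at the mean of the 2 libraries of a group. All members stay below 0.2 TPM in the anterior pieces, and in the posterior pieces only Hoxc10 has overlapping wild-type and mutant libraries. Both mutant posterior libraries lay above both wild-type ones in 33.4% of all genes tested.

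Hoxa10 (ENSMUSG00000000938; mm10 chromosome 6, 52231197 to 52240854, minus strand) was at 14.2 and 14.1 TPM in wild-type posterior libraries 153 and 156, from 345 and 650 reads. It was at 26.8 and 34.7 TPM in mutant posterior libraries 159 and 163, from 1315 and 992 reads. Both mutant libraries lay above both wild-type ones, and the wild-type pair was nearly equal. The mean rose 2.17-fold, and single pairs of libraries gave ratios from 1.89 to 2.46. The difference was 1.05 ± 0.16 (limma, adjusted p = 0.0053).

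Hoxd10 (ENSMUSG00000050368; chromosome 2, 74691924 to 74695105, plus strand), its paralogue in cluster d, was at 6.96 and 6.19 TPM in the wild type and at 13.8 and 16.3 TPM in the mutant. The groups did not overlap, and the rise was of the same order as that of Hoxa10 (2.29-fold, with pairs from 1.99 to 2.63). The difference was 1.08 ± 0.16 (limma, adjusted p = 0.0047), from 94 and 158 wild-type reads.

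Hoxc10 (ENSMUSG00000022484; chromosome 15, 102966796 to 102971893, plus strand) was at 22.8 and 31.2 TPM in the wild type and at 24.6 and 26.1 TPM in the mutant. Both mutant values lay between the wild-type ones. The difference was -0.07 ± 0.17 with a 95% confidence interval from -0.45 to 0.315 (limma, adjusted p = 0.83), an interval that does not reach the estimates for Hoxa10 and Hoxd10. Its sign rested on 1 library, since the difference was 0.15 without wild-type posterior library 156.

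Hoxa11 (ENSMUSG00000038210; chromosome 6, 52242106 to 52245810, minus strand) was at 2.76 and 4.38 TPM in the wild type, from 47 and 141 reads, and at 18.1 and 21.0 TPM in the mutant, from 621 and 420 reads. The groups were far apart, with a 5.47-fold higher mean and ratios of single pairs from 4.12 to 7.61. The difference was 2.19 ± 0.20 (limma, adjusted p = 0.00062). Hoxa11 and its antisense transcript Hoxa11os share 800 bases, 35.0% of the exon length of Hoxa11. The libraries do not mark strand, so reads there cannot be assigned to either gene.

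Hoxc11 (ENSMUSG00000001656; chromosome 15, 102954427 to 102957708, plus strand) had the largest difference of the 6 members, 2.56 ± 0.19 (limma, adjusted p = 0.00020). It was at 1.33 and 1.23 TPM in the wild type, from 20 and 35 reads, and at 10.9 and 14.1 TPM in the mutant, from 332 and 249 reads. The mean was 9.77-fold higher, with pairs from 8.22 to 11.5. Hoxc11 thus rose in the same libraries in which its cluster neighbour Hoxc10 did not pass.

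Hoxd11 (ENSMUSG00000042499; chromosome 2, 74679557 to 74687016, plus strand) was the lowest member in the mutant, at 8.45 and 7.09 TPM, from 535 and 261 reads. In the wild type it was at 0.702 and 1.44 TPM, from 22 and 85 reads. The mean was 7.27-fold higher in the mutant and the pairs ran from 4.94 to 12.04. The difference was 2.10 ± 0.22 (limma, adjusted p = 0.0010). Only 1 wild-type library had at least 1 TPM of Hoxd11, so this gene passed the filter on low values through the mutant posterior libraries.

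**Figure D2:**
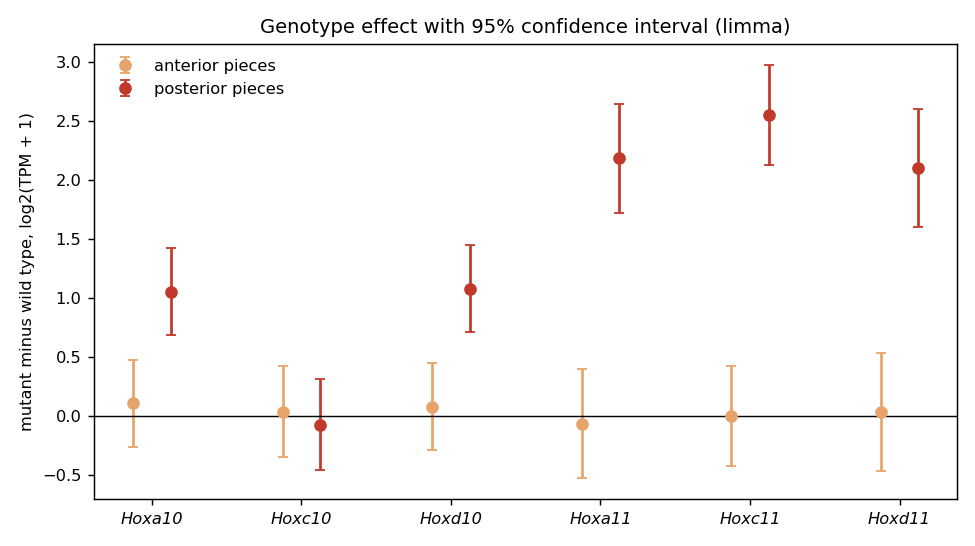
Mutant minus wild type on the log2(TPM + 1) scale for each member, in the anterior and the posterior pieces, with 95% confidence intervals from limma. In the posterior pieces the intervals of 5 members lie above 0 and that of Hoxc10 spans 0, from -0.45 to 0.315.

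The 5 posterior calls also held under median-of-ratios scaling, quantile normalization and rescaling without globin and mitochondrial transcripts. They held without both libraries numbered 159, which leaves no Xist-positive library, in a fit that was added once the values were known. Hoxa10 no longer passed when wild-type posterior library 153 (limma, adjusted p = 0.061) or 156 (adjusted p = 0.051) was left out, and Hoxd10 no longer passed with 0.1 in place of 1 added to TPM (adjusted p = 0.052). Without both libraries numbered 153, also added later, Hoxa10 and Hoxd10 missed the threshold (adjusted p = 0.11 and 0.088) and 3 members passed. Over all genes the calls were 1430 higher and 489 lower, which is 74.5% higher, against 54.3% under median-of-ratios scaling and 53.9% under quantile normalization.

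Promoter sequences are shown for 4 members that rose together, so that the paralogues and the cluster neighbours can be set side by side. They are the 250 bases in front of a RefSeq transcript start (RefSeq, GRCm38.p6), each read 5′ to 3′ on the strand of its gene. RefSeq entries matched 4 of the 6 members, and none matched Hoxc10 and Hoxc11. Capitals mark matches, on either strand, to core promoter motifs that were chosen after the sequences were seen. The CCAAT box is named by its letters, and a match on the other strand reads ATTGG. The TATA box was searched as TATAAA, and its match on the other strand is printed as TTTATA. The GC box was searched as GGGCGG, and its match on the other strand is printed as CCGCCC. Hoxa10 is from chr6:52234940-52235189 on the minus strand, in front of an inner start within the gene and in no annotated exon. Hoxd10 is from chr2:74691641-74691890 on the plus strand. Hoxa11 is from chr6:52245811-52246060 on the minus strand, where exons of the non-coding Hoxa11os and Gm28032 are annotated. Hoxd11 is from chr2:74682073-74682322 on the plus strand, in front of an inner start and in no annotated exon.
Hoxa10: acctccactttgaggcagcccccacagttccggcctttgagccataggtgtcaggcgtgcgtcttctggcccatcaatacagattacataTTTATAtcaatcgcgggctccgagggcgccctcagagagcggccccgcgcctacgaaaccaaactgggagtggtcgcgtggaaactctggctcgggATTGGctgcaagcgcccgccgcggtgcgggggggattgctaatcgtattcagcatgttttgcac
Hoxd10: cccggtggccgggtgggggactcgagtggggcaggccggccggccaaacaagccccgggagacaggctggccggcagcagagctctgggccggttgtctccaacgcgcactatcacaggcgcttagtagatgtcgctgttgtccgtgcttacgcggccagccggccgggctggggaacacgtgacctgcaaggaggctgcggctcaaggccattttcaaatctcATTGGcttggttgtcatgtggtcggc
Hoxa11: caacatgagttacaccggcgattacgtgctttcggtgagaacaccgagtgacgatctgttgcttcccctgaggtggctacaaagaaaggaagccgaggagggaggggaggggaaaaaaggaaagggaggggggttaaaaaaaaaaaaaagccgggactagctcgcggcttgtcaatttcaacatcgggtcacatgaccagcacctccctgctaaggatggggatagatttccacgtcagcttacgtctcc
Hoxd11: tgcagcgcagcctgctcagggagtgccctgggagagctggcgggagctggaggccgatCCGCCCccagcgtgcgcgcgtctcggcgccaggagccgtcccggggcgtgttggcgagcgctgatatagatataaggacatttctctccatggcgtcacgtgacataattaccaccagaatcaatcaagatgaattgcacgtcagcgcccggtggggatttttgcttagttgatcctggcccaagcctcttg

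The Hoxa10 and Hoxd10 stretches each hold ATTGG, the Hoxa10 stretch also TTTATA and the Hoxd11 stretch CCGCCC, while the Hoxa11 stretch holds none of the 3 core motifs. Hoxa10 and Hoxd11 each have an outer start whose stretch is not shown. That of Hoxa10 holds GGGCGG but neither ATTGG nor TTTATA, and that of Hoxd11 holds none of the 3. The ATTGG common to Hoxa10 and Hoxd10 thus depends on the start shown. The GC content was 59.2% for Hoxa10, 65.6% for Hoxd10, 52.0% for Hoxa11 and 60.4% for Hoxd11. The 4 genes have 6 promoter windows of 300 bases in the RefSeq table, which reach past the start. The direct repeat that Nr6a1 is known to bind, searched as AGGTCA directly followed by a second copy, was in 0 of those 6 windows on either strand, and in 2 of all 32851 windows (0.0061%). TCAAGGTCA, an extended single site contained in that repeat, was in 0 of the 6 and in 0.423% of all windows. TTTATG, a motif of the caudal-type factors, was in 1 of the 6 windows, an outer start of Hoxd11, and in 11.9% of all windows. CCAAT was in 2 of 6 and in 37.4% of all, TATAAA in 1 of 6 and 13.6% of all, and GGGCGG in 2 of 6 and 35.7% of all. These matches describe the letters of the windows and no binding was measured.

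In the anterior pieces 0 of the 6 members passed for the genotype difference, while 23.6% of all genes passed in either direction and 13.3% as higher. At an unadjusted p under 0.05 the count was also 0, as it was with limma voom on whole reads recovered from the TPM values, a fit added once the values were known. No member had more than 5 reads in any anterior library. Hoxa10 was at 0.0652 and 0.0319 TPM in the wild type and at 0.0923 and 0.171 TPM in the mutant. Hoxc11 was at 0 in all 4 anterior libraries, where 3 reads would have given between 0.149 and 0.166 TPM. Hoxd10 and Hoxd11 were at 0 in both wild-type anterior libraries and at no more than 0.0617 TPM in the mutant ones. The 6 differences lay between -0.06 and 0.11 with adjusted p from 0.67 to 1 (limma), so a genotype difference was not detectable at this depth. Such floors cover counting error only.

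The genotype effect was compared between the regions by an interaction term, posterior effect minus anterior effect. The 3 genes of group 11 passed and the 3 of group 10 did not, where 0.599% of all genes passed as higher and 1.01% in either direction. Of the 3 that passed, Hoxd11 was tested only because it met the filter with the mutant posterior libraries. The values were 2.25 ± 0.29 for Hoxa11 (limma, adjusted p = 0.012), 2.56 ± 0.26 for Hoxc11 (adjusted p = 0.0052) and 2.07 ± 0.31 for Hoxd11 (adjusted p = 0.024). Hoxa10 had 0.95 ± 0.23 (adjusted p = 0.11), Hoxd10 1.00 ± 0.23 (adjusted p = 0.096) and Hoxc10 -0.11 ± 0.24 (adjusted p = 0.90). The 3 interaction calls fell to 0 without wild-type posterior library 153, with 0.1 added to TPM or with limma voom on recovered reads, and to 1 without wild-type posterior library 156 or without the filter on low values. Hoxd11 alone missed the threshold with the replicate block (adjusted p = 0.056), with quantile normalization (0.0555), and without mutant posterior library 159 (0.051) or any of the 4 anterior libraries (0.060 to 0.069).

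The regions were also compared within each genotype. With anterior values at or near 0, a difference of log2(TPM + 1) follows the posterior level, so its order does not rank how restricted the members were. In the wild type 6 of 6 were higher in the posterior piece, where 7.86% of all genes passed as higher. The differences ran from 1.03 ± 0.22 for Hoxd11 (limma, adjusted p = 0.015) through 1.19 for Hoxc11, 2.07 for Hoxa11, 2.92 for Hoxd10 and 3.85 for Hoxa10 to 4.71 ± 0.17 for Hoxc10 (adjusted p = 4.6e-07). In the mutant 6 of 6 were again higher, against 8.01% of all genes, and the differences were between 3.09 for Hoxd11 and 4.80 for Hoxa10. In the wild type Hoxd11 no longer passed when anterior library 153, anterior library 156 or posterior library 156 was left out (limma, adjusted p = 0.065, 0.074 and 0.11). With only the wild-type groups fitted, Hoxd11 missed the filter and 5 of 5 tested members passed. Without both libraries numbered 153, a fit added later, 4 passed, with Hoxc11 at adjusted p = 0.12 and Hoxd11 at 0.083. With limma voom on recovered reads 6 passed, and the log2 differences were larger and in another order, at 5.44 for Hoxa11, 5.72 for Hoxc11, 6.53 for Hoxd11, 7.89 for Hoxd10, 7.91 for Hoxa10 and 8.45 for Hoxc10. These comparisons use the same posterior libraries as the genotype comparison.

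The order of the levels in the posterior pieces differed between the genotypes. In the wild type it ran from Hoxc10, at a mean of 27.0 TPM, through Hoxa10 at 14.2, Hoxd10 at 6.57 and Hoxa11 at 3.57 to Hoxc11 at 1.28 and Hoxd11 at 1.07. Only the last pair of neighbours overlapped, so every group 10 gene was above every group 11 gene. In the mutant Hoxa10 was first at 30.7 TPM, followed by Hoxc10 at 25.4, Hoxa11 at 19.5, Hoxd10 at 15.1, Hoxc11 at 12.5 and Hoxd11 at 7.77. There Hoxd10 and Hoxc11 were the neighbours that overlapped, and Hoxa11 lay above Hoxd10. These levels are per annotated exon length, so the order within a library, and the cluster shares below, depend on that length. It is 4212 bases for Hoxd11 and 3270 for Hoxa10, against 2021 for Hoxc11. In mutant posterior libraries 159 and 163 Hoxd11 had 535 and 261 reads, more than the 332 and 249 of Hoxc11.

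Summed over the 3 clusters, group 10 was at 44.0 and 51.5 TPM in the wild-type posterior libraries and at 65.3 and 77.1 TPM in the mutant ones. Group 11 was at 4.79 and 7.05 TPM in the wild type and at 37.4 and 42.2 TPM in the mutant. The ratio of group 11 to group 10 was 0.109 and 0.137 in the wild type and 0.574 and 0.547 in the mutant. The groups of libraries did not overlap in any of these 3 quantities, which restate the posterior levels used in the genotype tests and are not separate support. Of all genes tested, 33.4% had both mutant posterior libraries above both wild-type ones.

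The share of each cluster in the summed level of group 10 is a further way to compare clusters a, c and d. Hoxc10 made up 51.9% and 60.5% of group 10 in the wild-type libraries and 37.8% and 33.9% in the mutant ones. Hoxa10 made up 32.3% and 27.4% in the wild type and 41.0% and 45.0% in the mutant, and Hoxd10 15.8% and 12.01% against 21.2% and 21.1%. None of the 3 shares overlapped between the genotypes, and cluster c gave way to cluster a as the largest contributor. The shares add up to the whole and restate the posterior levels used in the genotype tests, so they are not separate support.

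In group 11 Hoxa11 was the largest contributor in both genotypes, with 57.6% and 62.2% in the wild type and 48.2% and 49.8% in the mutant. Hoxc11 went from 27.7% and 17.5% to 29.2% and 33.4% without overlap (a change of 3.55 percentage points without wild-type library 156 and 13.8 without library 153), and Hoxd11, with 14.6% and 20.4% against 22.6% and 16.8%, overlapped. The wild-type shares of group 11 rest on 89 and 261 reads. With 2 libraries against 2, the exact two-sided permutation test cannot give a p below 0.333, so no share can pass the threshold.

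**Figure D3:**
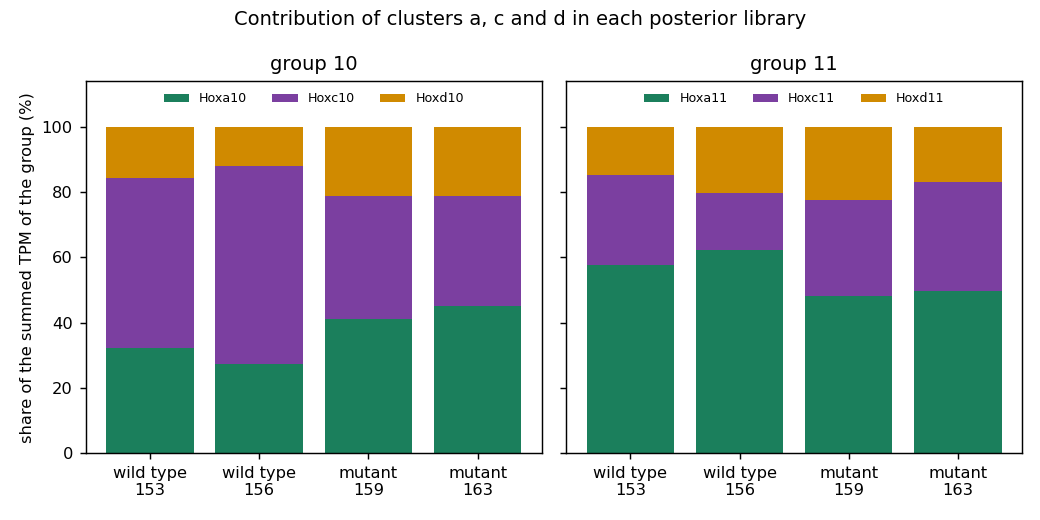
Share of clusters a, c and d, in percent, of the summed TPM of group 10 (left) and group 11 (right) in each posterior library, as stacked bars. Hoxc10 takes 51.9% and 60.5% of group 10 in the wild type and 37.8% and 33.9% in the mutant.

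Ratios between 2 members within 1 library do not depend on the scaling of that library apart from the added 1 TPM. The log2 ratio of Hoxa10 to Hoxc10 was -0.65 and -1.09 in the wild-type posterior libraries and 0.11 and 0.40 in the mutant ones, a shift of 1.12. The ratio of Hoxd10 to Hoxc10 shifted by 1.15, also without overlap. The ratio of Hoxd10 to Hoxa10 was -0.93 and -1.07 in the wild type and -0.90 and -1.05 in the mutant, and its shift of 0.03 lay within the spread of the libraries. In group 10 both ratios that involve Hoxc10 therefore shifted without overlap, and the ratio that leaves it out did not.

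Within group 11 the ratio of Hoxc11 to Hoxa11 shifted by 0.37 without overlap, but by 0.081 without wild-type posterior library 156, by 0.66 without library 153 and by 0.73 with 0.1 added to TPM. The ratio of Hoxc11 to Hoxd11 shifted by 0.45 and that of Hoxd11 to Hoxa11 by -0.08, and both overlapped. The Hoxc11 to Hoxd11 shift ranged from 0.16 to 0.74 with 1 library left out, lowest without wild-type posterior library 156 and highest without library 153. Neighbours of 1 cluster shifted further, by 1.13 for Hoxa11 to Hoxa10, 1.02 for Hoxd11 to Hoxd10 and 2.63 for Hoxc11 to Hoxc10, each without overlap. In 9 such pairs the exact permutation p was at least 0.333, the smallest that the design allows, and the adjusted p at least 0.50.

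In group 9, the neighbours toward the 3′ end of the clusters, 0 of 4 genes rose and 2 fell in the mutant posterior pieces. Over all genes tested, 8.56% passed as higher and 2.93% as lower. Hoxc9 fell from 33.0 and 25.4 TPM to 9.50 and 10.1 TPM (-1.47 ± 0.17, limma, adjusted p = 0.0015), and Hoxb9, of the cluster without a member, fell by 1.90 (adjusted p = 0.0012). Hoxa9 had -0.66 ± 0.19 (adjusted p = 0.062) and Hoxd9 -0.35 ± 0.16 (adjusted p = 0.20).

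The genes toward the 5′ end, groups 12 and 13, rose in 4 of 4 tested, against 8.56% of all genes. Of these 4, Hoxd12 and Hoxb13 passed the filter on low values only through the mutant posterior libraries. Hoxa13 was at 2.34 and 2.42 TPM in the wild type and 18.9 and 18.8 TPM in the mutant (2.56 ± 0.16). Hoxd13 went from 5.36 and 4.50 to 39.7 and 36.7 TPM (2.73 ± 0.17). Hoxd12 had 0 reads in wild-type posterior pieces and was at 7.85 and 9.12 TPM in the mutant, and Hoxb13 had a difference of 5.06. Hoxc12 and Hoxc13 stayed too low to be tested, with at most 1.29 TPM in any library.

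From group 9 to group 11 the differences were higher at each step within each cluster. Hoxc9 had a difference of -1.47 and Hoxc10 of -0.07, followed by 2.56 at Hoxc11. In cluster a the values went from -0.66 at Hoxa9 to 1.05 at Hoxa10 and 2.19 at Hoxa11, and in cluster d from -0.35 at Hoxd9 to 1.08 at Hoxd10 and 2.10 at Hoxd11. Whether these profiles differ between clusters was not tested beyond the ratios given.

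**Figure D4:**
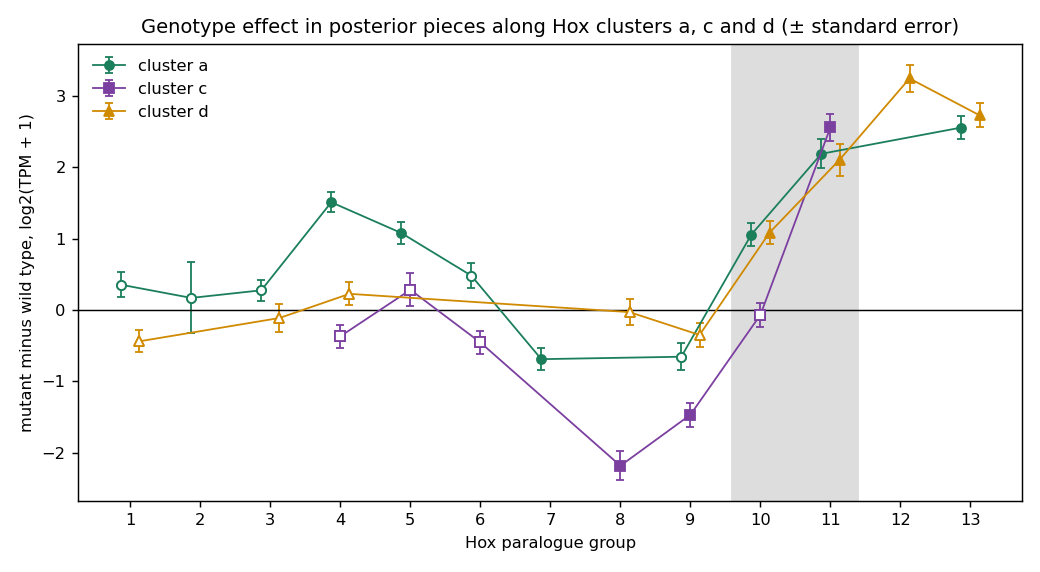
Mutant minus wild type in the posterior pieces, on the log2(TPM + 1) scale, for the tested genes of clusters a, c and d by paralogue group, with standard errors. Filled symbols passed the threshold, open symbols did not, and the grey band holds the members, where cluster c runs from -0.07 at Hoxc10 to 2.56 at Hoxc11.

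**Figure D5:**
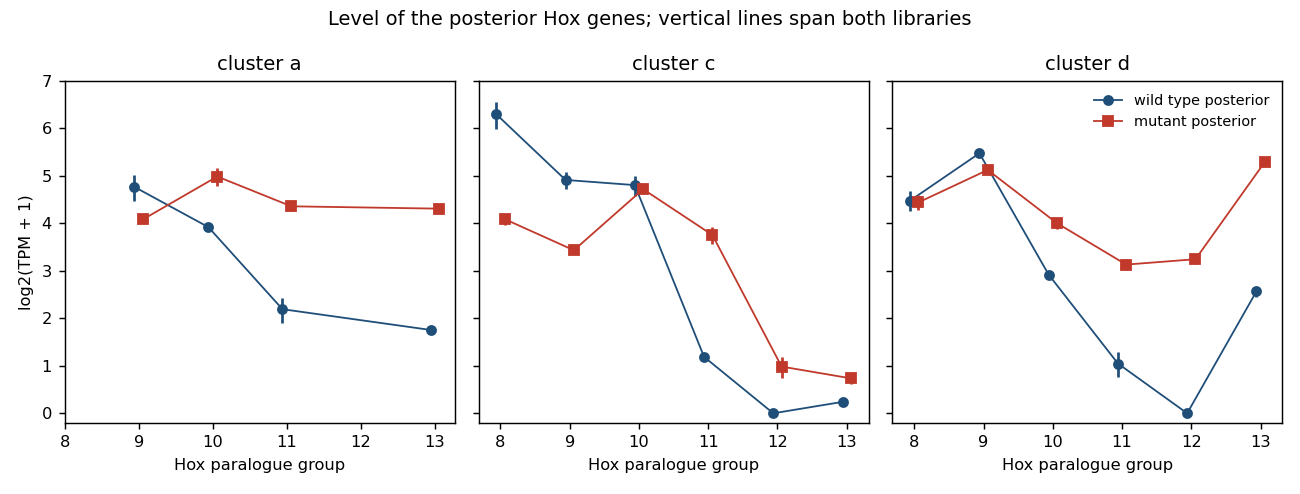
Level as log2(TPM + 1) of the genes of groups 8 to 13 in clusters a, c and d in posterior pieces, with the mean of 2 libraries and a vertical line from the lower to the higher one. The wild-type and mutant curves cross close to group 10 in cluster c and between groups 9 and 10 in clusters a and d.

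Between the group 9 and group 13 genes of these clusters, 18 non-coding genes are annotated, of which 5 reached 1 TPM in any library and 8 were at 0 in all. Hoxa11os, antisense to Hoxa11, was at 0.481 and 1.11 TPM in the wild-type posterior libraries and at 4.63 and 6.41 TPM in the mutant ones (1.87 ± 0.24, limma, adjusted p = 0.0023). Of its 3073 exon bases, 800 are shared with Hoxa11. The libraries do not mark strand, so its reads there may come from Hoxa11, and a change of the antisense transcript itself is not shown. 9530018H14Rik, between Hoxa11 and Hoxa13, went from 0.541 and 0.572 to 5.19 and 3.96 TPM (1.83 ± 0.20, adjusted p = 0.0012). Both genes reached 1 TPM in 2 libraries only with the help of the mutant posterior ones, so they passed the filter through the group in which they were high.

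In cluster c the small RNA gene Gm27535 was at 0 in the wild type and at 2.12 and 1.46 TPM in the mutant posterior libraries, from 5 and 2 reads, and Gm28011 reached 1.14 TPM in 1 mutant library, from 3 reads. Hotair, a long non-coding RNA of the same cluster, was at 0.763 and 0.457 TPM in the mutant and at 0 in the wild type, too low to be tested. Gm28793, antisense at Hoxd9, was at 1.95 and 0.689 TPM in the wild type and 0.644 and 1.39 TPM in the mutant, with overlap. Other exons shared with members were short: 166 bases of Hoxc10 (8.70% of its exon length) with Hoxc5, itself at 14.4 and 10.4 TPM in the wild type and 12.2 and 18.7 TPM in the mutant, and 104 bases of Hoxd10 and 455 bases of Hoxd11 with Gm28309, which reached at most 0.107 TPM.

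Genes that act with or upstream of these Hox genes were counted from lists, in the posterior pieces. Of all genes tested there, 8.56% rose and 2.93% fell, with a median difference of 0.05. Of 9 Pbx, Meis and Pknox cofactor genes, which encode partners that bind DNA together with Hox proteins, 1 rose and 0 fell, with a median difference of 0.13. The riser was Pbx4, from 3.37 and 3.70 to 5.43 and 5.52 TPM (0.52 ± 0.13, limma, adjusted p = 0.040). Of 19 Polycomb and trithorax genes, which hold Hox clusters silent or active, 1 rose and 1 fell, with a median of 0.11. Cbx2, a subunit of Polycomb complex PRC1, fell from a mean of 203 to 156 TPM (-0.38 ± 0.09, limma, adjusted p = 0.037).

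Of 22 regulators of the passage from trunk to tail, 21 were tested, and 4 rose and 5 fell, with a median of -0.07. Lin28a, an RNA-binding protein that blocks let-7, fell from 905 and 952 to 509 and 590 TPM (-0.76 ± 0.12, limma, adjusted p = 0.0057). Cdx4, a caudal-type homeobox gene upstream of trunk Hox genes, fell from 232 and 332 to 91.5 and 130 TPM (-1.34 ± 0.21, adjusted p = 0.0060). Jarid2, a cofactor of Polycomb complex PRC2, rose from a mean of 36.3 to 62.9 TPM (adjusted p = 0.011), and Acvr2a, a receptor of Gdf11, from 27.9 to 38.1 TPM (adjusted p = 0.023). In the anterior pieces 5 of the 21 rose and 6 fell, where 13.3% of all genes rose and 23.6% passed in either direction. There Lin28a went from 1154 and 1226 to 881 and 747 TPM. Jarid2 went from 44.7 and 49.6 to 63.2 and 66.4 TPM, and Acvr2a from 32.9 and 32.3 to 42.4 and 44.3 TPM. Cdx4 was at no more than 0.869 TPM there. The part of these genes in the members' levels was not tested.

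Of 11 genes known to depend on group 10 or 11 genes or to act with them in the kidney, 10 were tested. In the posterior pieces 1 rose and 3 fell, with a median of 0.02. Pax2, a regulator of the intermediate mesoderm, fell from 4.69 and 6.93 to 0.652 and 0.762 TPM (-1.98 ± 0.18, limma, adjusted p = 0.00053). Eya1 fell by 0.65 (adjusted p = 0.031) and Sall1 by 0.50 (adjusted p = 0.043), while Wt1 rose from a mean of 1.99 to 5.26 TPM (adjusted p = 0.012). Of 13 Hox genes of groups 1 to 7 in clusters a, c and d, 2 rose, Hoxa4 by 1.51 and Hoxa5 by 1.08, while Hoxa7 fell by 0.69. Pax2 was also lower in the mutant anterior pieces, at 3.72 and 3.87 TPM against 15.4 and 17.0 TPM in the wild type. Eya1 was there at 13.6 and 15.8 against 21.7 and 19.2 TPM. Of the 10 tested genes of that list, 1 rose and 1 fell there, where 13.3% of all genes rose and 23.6% passed in either direction. In the interaction 0 of the 10 passed, against 1.01% of all genes.

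Markers of other tissues in the posterior pieces moved with the members in part. Over all genes tested, 8.56% rose and 2.93% fell there. Of 6 genes of the hindlimb field 2 rose and 2 fell, with a median of 0.42, and Tbx4, also a marker of the allantois, rose from 8.11 and 9.01 to 55.5 and 66.3 TPM (2.69 ± 0.16, limma, adjusted p = 7.2e-05). Isl1 rose less (0.72 ± 0.19, limma, adjusted p = 0.046). The 2 that fell had differences of -0.42 and -0.61 (limma, adjusted p = 0.038 and 0.048). Of 7 allantois genes, 5 rose and 0 fell, with a median of 0.94, and their summed level was 256 and 257 TPM in the wild type and between 405 and 424 TPM in the mutant. That list shares Tbx4 and Isl1 with the hindlimb list. Hottip, a non-coding RNA at the 5′ end of cluster a, is in it as well and was at 0 and 0.0247 TPM in the wild type and at 1.25 and 1.43 TPM in the mutant (1.21 ± 0.21, adjusted p = 0.0086). It passed the filter only through those mutant libraries, and its place in the count of 5 rests on them. In the anterior pieces, where the members were at 5 reads or fewer, the allantois list was also higher. There 4 of 7 rose, against 13.3% of all genes tested. The sums were between 83.0 and 92.3 TPM in the wild type and between 126 and 142 TPM in the mutant.

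Of 6 genes of primitive blood, 4 rose and 0 fell, with a median of 1.89 and sums of 6312 to 7551 TPM in the wild-type posterior and 22055 to 43809 TPM in the mutant posterior pieces. Of 8 genes of the visceral endoderm, 0 rose and 2 fell, with a median of -2.38 and sums of 1692 to 2070 TPM against 150 to 810 TPM. Of 5 heart genes 0 passed, with sums of 288 to 864 TPM against 267 to 2138 TPM. Of 5 trophoblast genes 2 were tested and 1 rose, Ascl2 from a mean of 1.16 to 3.78 TPM (limma, adjusted p = 0.024), which reached 1 TPM in only 1 wild-type library and so passed the filter through the mutant ones. Tpbpa was at 0 in all 8 libraries. The blood genes were also higher in the mutant anterior pieces, where 5 of 6 rose and 0 fell, against 13.3% of all genes as higher. Their sums were 4210 to 9857 TPM in the wild-type anterior and 25361 to 43635 TPM in the mutant anterior pieces. Of the endoderm genes 0 passed there, of the heart genes 0, and of the 2 trophoblast genes tested 1 rose. The part of these tissues in the levels of the members was not tested.

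Genes whose level was most like the mean of the 6 members across the 8 libraries were sought among 11973 protein-coding genes outside the Hox clusters. The highest Pearson r were those of Mixl1 (0.998), Postn (0.998), Prdm13 (0.998), Dok4 (0.997), Mesp1 (0.996), Fmod (0.995), S1pr5 (0.993) and Kcnk3 (0.993). Mixl1, a homeobox gene of the primitive streak, had means of 0.207 TPM in wild-type anterior, 0.229 in mutant anterior, 6.30 in wild-type posterior and 17.2 in mutant posterior pieces. Postn, which encodes the matrix protein periostin, had means of 3.87, 4.51, 29.4 and 86.0 TPM in the same order. The lowest r were those of Mip (-0.994), Emx2 (-0.989) and Mcoln3 (-0.988). The 8 points are 2 libraries of each of 4 groups, with the anterior ones near 0 for all members, so the coefficients describe the group pattern and were not tested.

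Among the members, Hoxa10 and Hoxd10 were each closest to the other (r = 0.998), as were Hoxc11 and Hoxd11 (r = 0.989). Hoxc10 was closest to Hoxa10 (r = 0.982) and Hoxa11 to Hoxd11 (r = 0.981). These 4 coefficients have the same 8 libraries behind them.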

How the data were processed

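The authors deposited 1 table of TPM values (length-corrected and scaled to the same total in each library), with a column for each of the 8 libraries. CASAVA 1.8.2, STAR and the mm10 build are named, per the submitters' processing notes, and the poly-A libraries carry no strand information, per the labels' protocols. The sources used here do not give the STAR version, the annotation or the counting tool. Names, coordinates and exon lengths came from a GENCODE mouse annotation of that build. After multiplication of TPM by exon length and rescaling, 98.8% to 98.9% of values above 0 lay at a whole read (tolerance 0.01), and read counts in the text come from this step.

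Genes with at least 1 TPM in at least 2 libraries were kept (16699). R 4.3.3 and limma 3.58.1 were used to fit log2(TPM + 1), with 1 mean for each of the 4 groups over all 8 libraries, a trend on the mean and 4 residual degrees of freedom. Two-sided p-values were adjusted over all genes by the Benjamini-Hochberg method, with a threshold of 0.05, and the fit was tested on simulated data. Shares and ratios of paralogues were compared by exact permutation tests. The members, gene lists and tests were chosen with earlier results of these data known. Named were the members, their neighbours of groups 9, 12 and 13, up to 4 genes of each list with the smallest p, non-coding genes of the clusters that reach 1 TPM, and the 8 most and 3 least similar genes. A gene that this rule takes is not reported here. Hotair, Gm28309 and the genes at 0 in a marker list were named outside that rule, after their values were seen. Alternatives changed the pseudocount, filter, scaling, trend, library weights, groups fitted and block, and left out each library. Fits without both libraries numbered 153 or 159, and limma voom on the recovered reads, were chosen after seeing the data.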

Additional observations from a re-analysis of the deposited data

Results flagged for a closer look

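The genotype effect differed between posterior and anterior pieces for the 3 genes of group 11, by an interaction term in limma. Of all genes tested, 0.599% passed as higher in it. Hoxd11 met the filter on low values only with the mutant posterior libraries. The posterior effect exceeded the anterior one by 2.25 for Hoxa11, 2.56 for Hoxc11 and 2.07 for Hoxd11 on the log2(TPM + 1) scale, with adjusted p of 0.012, 0.0052 and 0.024. For each gene both mutant posterior libraries lay above both wild-type ones, as they did in 33.4% of all genes tested. In the anterior pieces no library had more than 2 reads of any of them, so the difference amounts to the posterior effect set against values near 0. Over all alternatives the adjusted p ranged from 0.010 to 0.22 for Hoxa11, from 0.0038 to 0.23 for Hoxc11 and from 0.019 to 0.68 for Hoxd11.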

How the results depend on the processing

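Of 521 values of single members under the alternatives (posterior genotype effect, interaction and regions), 482 kept their direction and their side of the threshold, 34 lost it, 1 gained it (Hoxd10 in the interaction with no trend, adjusted p = 0.045) and 4 changed sign. In the anterior genotype effect 0 members passed under every alternative that gave a value, with adjusted p from 0.145 to 1. With 1 library left out, the count of members that passed was 4 to 5 for the posterior genotype effect, 0 to 3 for the interaction and 5 to 6 for the regions in the wild type. Without both libraries numbered 153, chosen after seeing the data, the posterior count was 3 and the interaction count 0. The interaction count was also 0 with 0.1 added to TPM and with limma voom on recovered reads, and 1 without a filter. With voom the interaction of Hoxa10 was -0.14 and that of Hoxd10 -0.45. The cause of these changes was not tested. Leaving out an anterior library, or changing the trend, library weights or block, did not move the posterior estimates. Many of the 482 values could thus change only in p. Values of members that did not pass in the main fit, such as Hoxc10 in the posterior genotype effect, are also among the 482.

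With 1 library left out, the share of cluster d in group 11 changed by -0.70 to 5.07 percentage points. The ratio of Hoxd10 to Hoxa10 then shifted by -0.046 to 0.10, and that of Hoxd11 to Hoxa11 by -0.30 to 0.13 (0.37 with 0.1 added to TPM). Hoxc10 ran from -0.29 to 0.15 in the posterior pieces and from -0.33 to 0.11 in the interaction. Where 1 library was left in a group, it was assumed to vary like the others. With only the anterior groups fitted, no member passed the filter, so no value was obtained.

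Libraries of the same number deviated together only weakly (r = 0.14 for 159 and for 163, 0.022 for 153 and for 156, across genes), and the main fit did not take the numbers as pairs. With 2 libraries in a group the deviations mirror each other, so both numbers of a genotype give the same r. In the mutant, Xist marked 159 and Ddx3y marked 163 in both pieces, so the weak r does not exclude pairing by number. With the replicate block, 5 members passed for the posterior genotype effect, 0 for the anterior one, 6 in each region comparison and 2 for the interaction, where Hoxd11 was at adjusted p = 0.056. Depth limits the anterior values, at 0 to 5 reads a member, and the wild-type levels of Hoxc11 and Hoxd11, which rest on 20 to 85 reads.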
